A study of Mus musculus with 12 samples.

Results

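The genes described here are 7 enzymes of liver that oxidise drugs, aldehydes, purines and amines, namely the aldehyde oxidases Aox1 and Aox3, xanthine dehydrogenase (Xdh) and the flavin-containing monooxygenases Fmo1, Fmo2, Fmo4 and Fmo5. They are 7 of the 54532 genes listed in the table, and were found by their symbols. They were chosen from measured values, since their mRNA levels in the 4 diet groups were known when the list was made, so that their levels and the differences between groups are given as a description, with no test. All 7 had a mean of at least 1 FPKM (fragments counted on a gene per kilobase of its exons and relative to sequencing depth) over the 12 livers, which 11083 genes of the table reached. The livers came from male C57BL/6J mice that were put on their diets at 5 weeks of age and stayed on them for 26 weeks. Mice of the group ND ate a normal diet, control mice a high-fat diet without supplement, and the HYA and LA groups a high-fat diet with 1% of the respective fatty acid, with 3 mice per group. LA is linoleic acid, and HYA is a hydroxylated derivative of it made by gut bacteria. The high-fat diet was shared by control, HYA and LA mice, so that comparisons with ND differ in the whole diet.

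Aldehyde oxidases and xanthine dehydrogenase are relatives that carry a molybdenum cofactor, FAD and iron-sulfur clusters. Aldehyde oxidases oxidise aldehydes and nitrogen-containing rings, among them N-methylnicotinamide and pyridoxal, in the cytosol of hepatocytes, and xanthine dehydrogenase forms uric acid from hypoxanthine and xanthine. Flavin-containing monooxygenases sit in the endoplasmic reticulum and use NADPH and oxygen to oxygenate the nitrogen or sulfur of foreign compounds and of some metabolites.

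Aox1 (ENSMUSG00000063558, chr1:58029931-58106413) and Aox3 (ENSMUSG00000064294, chr1:58113130-58200698) lie next to each other on the plus strand of the mouse genome build GRCm38, followed by Aox4 and Aox2. Fmo4 (ENSMUSG00000026692, chr1:162793188-162813972), Fmo1 (ENSMUSG00000040181, chr1:162829561-162866610) and Fmo2 (ENSMUSG00000040170, chr1:162874317-162898726) are neighbours on the minus strand of the same chromosome. Fmo5 (ENSMUSG00000028088, chr3:97628804-97655282, plus strand) and Xdh (ENSMUSG00000024066, chr17:73883895-73950196, minus strand) stand apart. In the GENCODE M21 annotation of the same build, the transcript with the longest coding sequence has 35 exons for Aox1 and Aox3, 36 for Xdh, 9 for Fmo1, Fmo2 and Fmo5, and 10 for Fmo4. The coordinates and gene lengths of the table were identical to this annotation for each of the 7 genes, and the length used for FPKM was that of all exons of all transcripts together.

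Relatives in sequence can share reads, so their coding sequences were compared. Aox1, Aox3 and Xdh shared 63.0% to 67.6% of aligned coding bases in the 3 pairs, and the 4 flavin monooxygenases 61.6% to 65.1% in the 6 pairs. The longest stretches identical in a pair of these transcripts were 20 bases in the first family and 24 in the second, both shorter than a sequencing read. They are shown because the levels of these families rest on this difference. The first is the stretch common to Aox1 (chr1:58043589-58043608) and Aox3 (chr1:58118645-58118664), and the other that common to Fmo1 (chr1:162859483-162859506, read on the minus strand) and Fmo5 (chr3:97629114-97629137), each within a coding exon.
Aox1 and Aox3: gcctgcacagtgatgatctc
Fmo1 and Fmo5: catcaagtgctgcctggaagaggg

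Since Aox1 and Aox3 are neighbours whose levels differed in size and in their course over the diets, the bases upstream of both are shown (RefSeq, GRCm38.p6, plus strand). They run from 250 bases before the RefSeq start to the base before the start of the gene in the table, chr1:58029719-58029930 for Aox1 and chr1:58112886-58113129 for Aox3. Capitals mark matches to a CCAAT box, a GC box, an AP-1-type motif or the core of the xenobiotic response element, of 12 motifs searched on both strands.
Aox1: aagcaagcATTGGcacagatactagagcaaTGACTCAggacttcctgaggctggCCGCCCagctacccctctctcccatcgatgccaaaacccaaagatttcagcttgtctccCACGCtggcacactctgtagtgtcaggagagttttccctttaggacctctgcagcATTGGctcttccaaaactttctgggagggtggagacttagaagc
Aox3: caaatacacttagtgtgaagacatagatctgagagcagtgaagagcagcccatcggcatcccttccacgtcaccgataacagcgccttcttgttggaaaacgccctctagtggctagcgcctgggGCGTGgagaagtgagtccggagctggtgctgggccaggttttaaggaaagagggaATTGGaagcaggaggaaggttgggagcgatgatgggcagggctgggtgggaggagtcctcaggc

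Of all 32817 RefSeq windows of 300 bases (250 before and 50 from the start on), the CCAAT box (spelled CCAAT) was found in 37.4%, the GC box (GGGCGG) in 35.6%, the core of the xenobiotic response element (GCGTG) in 32.4% and the AP-1-type motif (TGANTCA) in 7.81%. The last was in the window of Aox1 and not in that of Aox3. The STAT-type letters TTCNNNGAA, held by 8.29% of all windows, were in the window of Fmo2 and in no other window of these genes. TATAAA (13.6% of all windows) was in the window of Fmo5 alone. TGACNNNGC, a core of the antioxidant response element (12.4% of all windows), was in none of them, nor were the HNF4-type CAAAGTCCA (0.475%), the C/EBP-type TTGCGCAA (0.183%), the direct repeat of nuclear receptors with 1 base between its parts (0.0396%), and the HNF1-type and the glucocorticoid or androgen response element-type motifs (0.00914% each). The windows of 5 of the 7 genes were matched, and those of Xdh and Fmo1 were not.

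Libraries held between 17169064 and 25220880 fragments on genes, as recovered from the steps of the FPKM values, and the members between 114 (Fmo2 and Fmo4 in ND-fed mice) and 27675 fragments (Aox3) in a liver. Counting error was therefore small for Aox1, Aox3, Xdh, Fmo1 and Fmo5 (at least 2866 fragments in every liver) and larger for Fmo2 and Fmo4. The 8 markers of hepatocytes summed to 41230 to 43150 FPKM (ND), 27790 to 31290 (control), 35480 to 36550 (HYA) and 30420 to 31080 (LA), and 6 of the 8 were called lower under the high-fat control diet than on ND and 0 higher (limma, adjusted p under 0.05). Of all tested genes, 19.1% were called lower and 16.2% higher there. Alb made up most of these sums (mean 29220 FPKM in ND-fed and 20500 in control mice), and Tf was not lower (155 and 165 FPKM). The 9 markers of stellate cells and fibroblasts summed to 52.6 to 66.9 FPKM (ND), 105 to 138 (control), 88.5 to 107 (HYA) and 116 to 139 (LA). Of them 6 were called higher in the control group than on ND. With HYA 3 were called lower than in the control group and 0 higher, against 1.23% and 1.57% of all tested genes. The list did not move as a whole, since mean Lrat was 6.99 FPKM in control and 8.15 in HYA-treated mice, and Reln 4.85 and 5.20. The other markers of this list had lower means with HYA, Col1a1 among them (10.7 and 4.34). Sums for sinusoidal endothelium were 59.9 to 73.4 in ND-fed and 79.0 to 86.6 in the other mice, with 3 of 7 markers called higher in the control group than on ND. Those for Kupffer cells overlapped between ND-fed (131 to 207) and control mice (161 to 184). That sum joins opposite changes, since 1 of its 6 markers was called higher and 2 lower in the control group than on ND. Mean Marco was 23.4 FPKM in ND-fed and 5.96 in control mice, and Cd5l 63.3 and 90.7. The 4 lymphocyte and the 4 adipocyte markers summed to at most 3.22 and 0.422 FPKM. The 5 cholangiocyte markers summed to 3.30 to 4.47 (ND), 4.18 to 6.97 (control), 2.87 to 3.69 (HYA) and 4.42 to 7.32 FPKM (LA). Only 2 of the 5, Epcam and Sox9, had a mean of at least 1 FPKM and were tested. Of these 2, 1 was called higher in the control group than on ND and 1 lower with HYA than in the control group. The FPKM of all genes summed to 407652 to 429286 in ND-fed and 342146 to 368132 in control mice, so the marker sums depend on library scaling too. In bulk liver, fewer hepatocytes and less mRNA per hepatocyte cannot be told apart, nor can either be told from a change of the marker genes themselves. The part of cell composition in the values below was not tested.

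By mean level over the 12 livers the order per length was Fmo5 (162 FPKM), Aox3 (99.9), Fmo1 (34.4), Xdh (26.0), Aox1 (20.0), Fmo4 (2.90) and Fmo2 (2.09). Of their relatives, Aox2 had 36 fragments in all, in 8 of 12 livers and at most 7 in a liver, with 5 to 7 in each HYA-treated and 0 to 5 in each LA-treated mouse. Aox4, Fmo6 and Fmo9 had 0 in every liver. The limit that 3 fragments set was 0.0144 to 0.0224 FPKM for Aox4, 0.0620 to 0.0965 for Fmo6 and 0.0396 to 0.0616 for Fmo9, and covers counting error only.

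**Figure D1:**
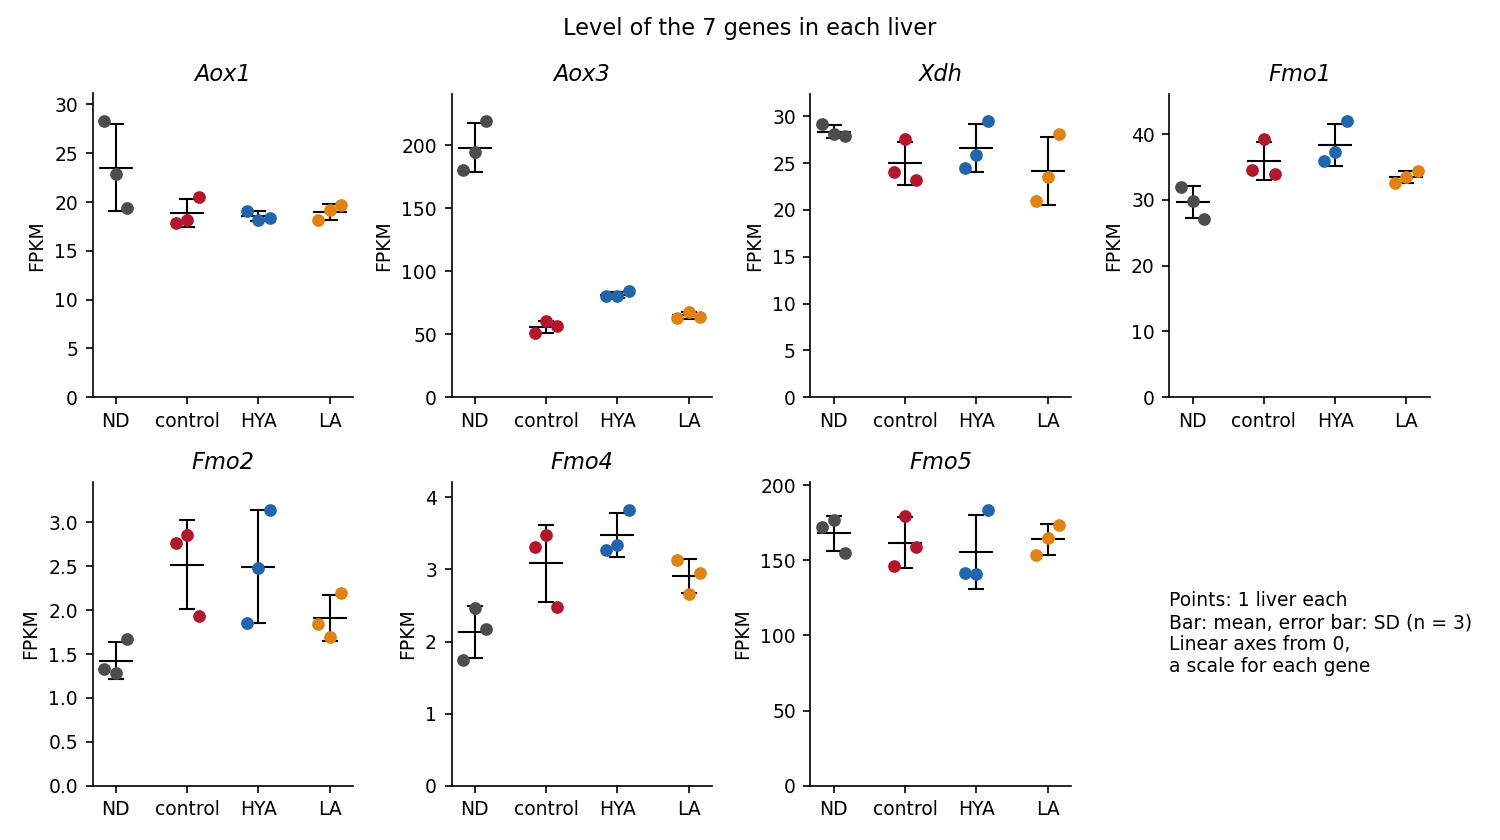
FPKM of each of the 7 genes (y axes, linear, from 0) in each liver by diet group (x axes). Points are livers, and bars and error bars are means and SD of 3 mice. Aox3 lay at 180 to 219 FPKM in ND-fed and at 50.6 to 84.0 FPKM in all other mice.

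Aox3, the main aldehyde oxidase of mouse liver by these levels, had the largest difference of the 7 genes. It was at 180, 194 and 219 FPKM in ND-fed mice 1, 2 and 3, at 50.6, 60.4 and 56.3 in control mice, at 80.1, 79.9 and 84.0 in HYA-treated mice and at 63.0, 67.7 and 63.8 in LA-treated mice. Means were 198 ± 19.6, 55.7 ± 4.91, 81.3 ± 2.30 and 64.8 ± 2.52 FPKM (SD, n = 3). Every ND-fed mouse was above every other mouse, every HYA-treated mouse was above every LA-treated mouse, and every LA-treated mouse was above every control mouse, so that no pair of groups overlapped.

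The mean of Aox3 was 3.55-fold lower in control mice than on ND, 3.05-fold lower in LA-treated and 2.43-fold lower in HYA-treated mice. On the scale of log2(FPKM + 1) these differences were −1.81, −1.59 and −1.27, each with a standard error of 0.08 from the fit over all tested genes. Within the high-fat diet, HYA-treated mice were 1.46-fold above control mice (0.54 on the log2 scale, standard error 0.08) and 1.26-fold above LA-treated mice (0.32). LA-treated mice were 1.16-fold above control mice (0.22). These comparisons share groups and are not independent of each other. The order of the 4 groups and the lack of overlap were the same with TPM and with FPKM on the recovered fragment totals, where the ratio of control to ND was 0.332 and 0.321 in place of 0.282.

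Aox1, its neighbour, was lower and more alike across the diets. It was at 28.3, 22.9 and 19.4 FPKM in ND-fed mice, 17.9, 18.2 and 20.5 in control mice, 19.1, 18.2 and 18.4 in HYA-treated mice and 18.1, 19.2 and 19.7 in LA-treated mice. Means were 23.5 ± 4.49, 18.9 ± 1.45, 18.6 ± 0.485 and 19.0 ± 0.801 FPKM (SD, n = 3). ND-fed mice spread from a level within the range of control mice to 1 far above it, while the 9 mice on the high-fat diet lay between 17.9 and 20.5. The groups overlapped except that HYA-treated mice were all below ND-fed mice (18.6 against 23.5 FPKM, −0.31 on the log2 scale, standard error 0.11), and these overlapped as well with TPM and with recovered totals. With TPM, HYA-treated mice were all below LA-treated mice (ratio 0.899).

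The make-up of the aldehyde oxidase mRNA differed between diets. Aox3 took 86.4% to 91.9% of the summed FPKM of Aox1 and Aox3 in ND-fed mice (mean 89.3% ± 2.72), 73.3% to 76.9% in control mice (74.7% ± 1.92), 80.7% to 82.0% in HYA-treated mice (81.4% ± 0.653) and 76.4% to 77.9% in LA-treated mice (77.3% ± 0.782; SD, n = 3). Library scaling cancels in this share, but its size depends on the gene lengths behind FPKM. Those were 8690 bases for Aox1 and 7033 for Aox3, against 4423 and 4606 in the transcript with the longest coding sequence. Control and LA-treated mice overlapped in it, while ND-fed and HYA-treated mice overlapped with no other group. The sum of Aox1 and Aox3 was 221 ± 15.3 FPKM (ND), 74.6 ± 5.38 (control), 99.9 ± 2.21 (HYA) and 83.8 ± 2.93 (LA).

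**Figure D2:**
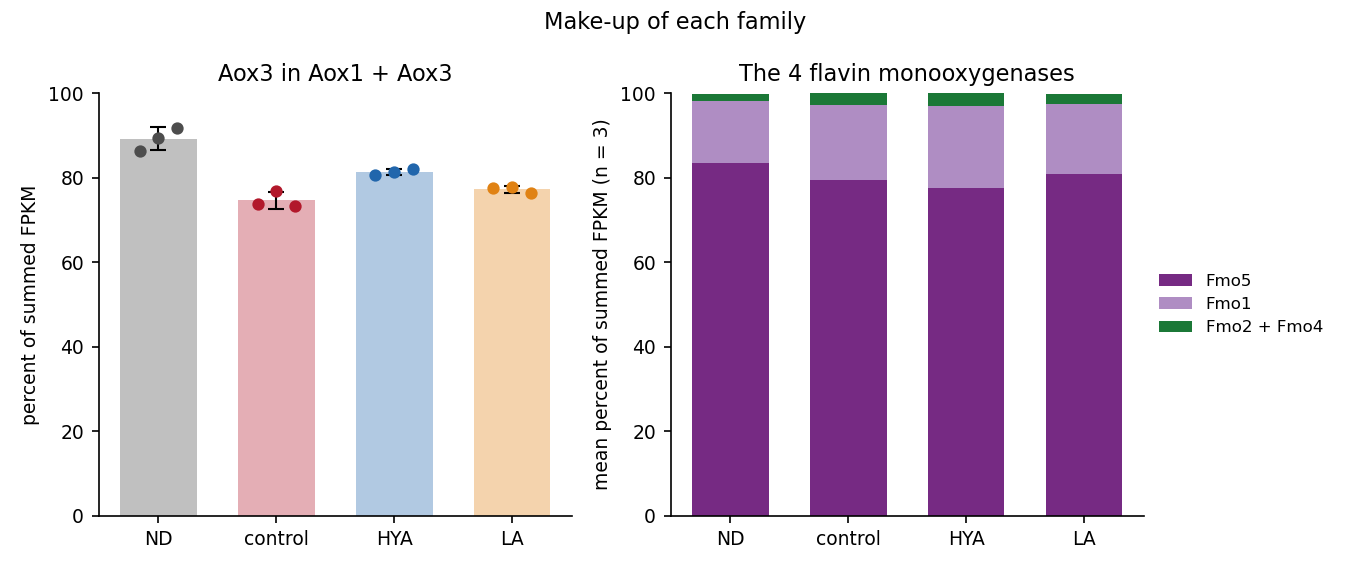
Left, Aox3 as a percent of the summed FPKM of Aox1 and Aox3 (points are livers, bars and error bars are means and SD of 3 mice). Right, mean percent of each gene in the summed FPKM of the 4 flavin monooxygenases. The share of Aox3 was highest in ND-fed mice (89.3%) and lowest in control mice (74.7%), and Fmo5 made up 77.7% to 83.5% on the right.

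Xdh was at 29.2, 28.1 and 27.9 FPKM in ND-fed mice, 24.03, 27.6 and 23.2 in control mice, 24.5, 25.8 and 29.5 in HYA-treated mice and 20.9, 23.5 and 28.1 in LA-treated mice. Means were 28.4 ± 0.702, 24.95 ± 2.32, 26.6 ± 2.58 and 24.2 ± 3.60 FPKM (SD, n = 3). Control mice were all just below ND-fed mice, with control mouse 2 at 27.59 and ND-fed mouse 3 at 27.85 FPKM, and all other pairs of groups overlapped. The difference of −0.18 on the log2 scale (standard error 0.10) became 0.05 with TPM and 0.0011 with recovered totals, where the ranges overlapped, so that no direction can be given for Xdh.

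Fmo1, which oxygenates amines and sulfides and is strong in mouse liver and kidney, was at 31.9, 29.8 and 27.1 FPKM in ND-fed mice, 34.6, 39.3 and 34.0 in control mice, 35.9, 37.3 and 42.0 in HYA-treated mice and 32.6, 33.5 and 34.4 in LA-treated mice. Means were 29.6 ± 2.43, 36.0 ± 2.93, 38.4 ± 3.18 and 33.5 ± 0.899 FPKM (SD, n = 3). All 9 mice on the high-fat diet were above the 3 ND-fed mice, by 0.27 (control), 0.36 (HYA) and 0.17 (LA) on the log2 scale, with a standard error of 0.08 each. Set against Xdh in the same liver, which cancels library scaling, Fmo1 was at a ratio of 1.04 ± 0.0631 (ND), 1.44 ± 0.0192 (control), 1.45 ± 0.0215 (HYA) and 1.40 ± 0.167 (LA). HYA-treated mice were also above LA-treated mice, by 0.19 on the log2 scale, but these groups overlapped with TPM and with recovered totals.

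Fmo2, best known from lung, was the lowest of the 7 genes, at 1.33, 1.28 and 1.67 FPKM in ND-fed mice, 2.76, 2.85 and 1.94 in control mice, 1.86, 2.48 and 3.15 in HYA-treated mice and 1.84, 1.70 and 2.20 in LA-treated mice. Means were 1.43 ± 0.211, 2.52 ± 0.505, 2.49 ± 0.644 and 1.91 ± 0.259 FPKM (SD, n = 3), from 114 to 436 fragments in a liver. ND-fed mice were below all others, with ND-fed mouse 3 (1.67) close to LA-treated mouse 2 (1.70), and the 3 groups on the high-fat diet overlapped. The ratio of control to ND-fed mice was 1.77, and 2.09 with TPM.

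Fmo4, the least studied of the hepatic flavin monooxygenases, was at 1.75, 2.46 and 2.18 FPKM in ND-fed mice, 3.31, 3.47 and 2.47 in control mice, 3.27, 3.33 and 3.83 in HYA-treated mice and 3.13, 2.66 and 2.95 in LA-treated mice. Means were 2.13 ± 0.358, 3.09 ± 0.536, 3.48 ± 0.307 and 2.91 ± 0.237 FPKM (SD, n = 3). ND-fed mice were again below all others, but control mouse 3 (2.474) exceeded ND-fed mouse 2 (2.463) by less than counting error. HYA-treated mice were above LA-treated mice (0.19 on the log2 scale, standard error 0.11), also with recovered totals but not with TPM, where they overlapped.

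Fmo5, which acts on ketones and aldehydes as a Baeyer-Villiger oxygenase, was the most abundant, at 172, 177 and 155 FPKM in ND-fed mice, 146, 180 and 159 in control mice, 142, 141 and 184 in HYA-treated mice and 153, 165 and 174 in LA-treated mice. Means were 168 ± 11.6, 162 ± 16.8, 156 ± 24.5 and 164 ± 10.2 FPKM (SD, n = 3), and every pair of groups overlapped on this scale. With TPM, control and LA-treated mice were above ND-fed mice without overlap (ratios 1.13 and 1.14), whereas the ratio of control to ND-fed mice was 0.962 in FPKM. The summed FPKM of the 4 flavin monooxygenases was 201 ± 13.4 (ND), 203 ± 19.9 (control), 200 ± 28.5 (HYA) and 202 ± 11.1 (LA). Within that sum, Fmo5 held 83.5% ± 0.508 (ND), 79.5% ± 1.14 (control), 77.7% ± 1.19 (HYA) and 81.0% ± 0.618 (LA) (SD, n = 3), and the 3 ND-fed mice (83.1% to 84.1%) were above all others. Fmo1 held 14.7%, 17.7%, 19.3% and 16.6%, and Fmo2 and Fmo4 together 1.78%, 2.76%, 2.99% and 2.39%. The size of these shares depends on the gene lengths behind FPKM. Those were 6304 bases for Fmo1 and 5675 for Fmo5, against 2388 and 5197 in the transcript with the longest coding sequence.

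Between control and ND-fed mice, 3 of the 7 genes (Fmo1, Fmo2 and Fmo4) were higher and 2 (Aox3 and Xdh) lower with no overlap, while 19.9% and 25.7% of all tested genes were so. The median difference of the 7 genes was −0.06 on the log2 scale, against −0.04 for all tested genes, and it gathers differences of opposite sign. Between HYA-treated and control mice, Aox3 alone was higher and 0 genes were lower, with 12.7% and 8.87% of all tested genes. Between LA-treated and control mice, Aox3 was again the only 1 without overlap, higher, against a background of 3.94% higher and 3.61% lower. Between HYA-treated and LA-treated mice, Aox3, Fmo1 and Fmo4 were higher and 0 were lower (14.8% and 10.4% of all tested genes). Against ND-fed mice, HYA had 3 of the genes higher and 2 lower (background 16.6% and 19.3%), and LA 3 higher and 1 lower (20.5% and 26.5%). The members were chosen with these levels known, so nothing is read from the counts.

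**Figure D3:**
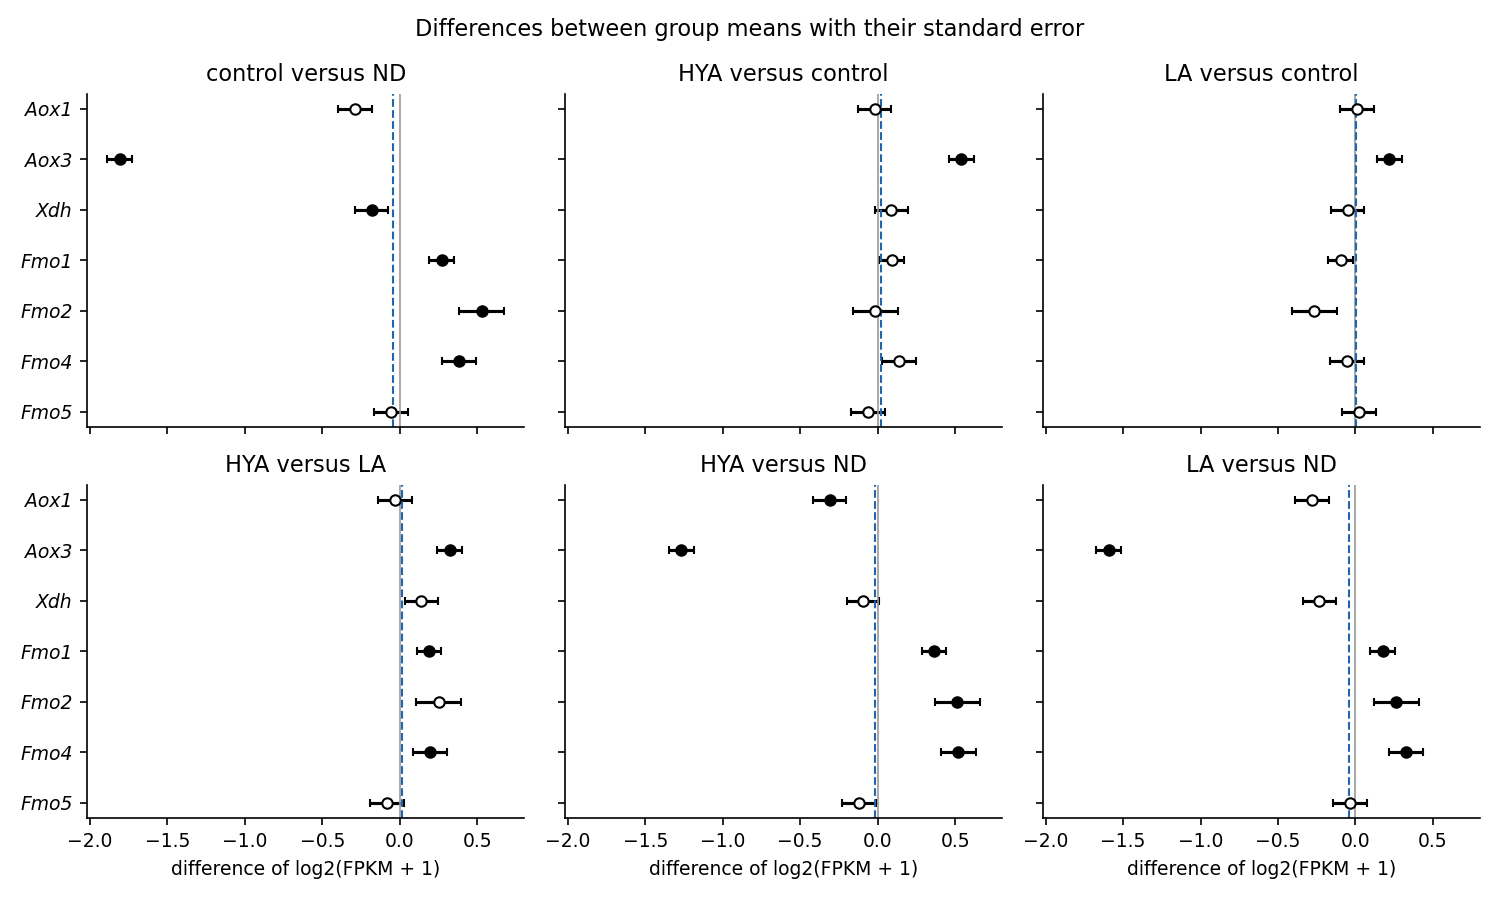
Difference between group means of log2(FPKM + 1) for each gene (x axes) in the 6 comparisons, with the standard error of the fit over all tested genes. Filled points are genes whose groups of 3 mice did not overlap, and dashed lines the median of all 11083 tested genes. The difference of Aox3 ran from −1.81 (control versus ND) to 0.54 (HYA versus control).

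How libraries were scaled moved all genes together. The deposited values had a median difference of −0.04 over all tested genes between control and ND-fed mice, which became 0.17 with TPM and 0.11 with recovered fragment totals, and between HYA-treated and control mice it went from 0.02 to −0.10 and −0.06. The ratio of control to ND-fed mice stayed below 1 for Aox1 and Aox3 and above 1 for Fmo1, Fmo2 and Fmo4 under all 3 scalings, and crossed 1 for Xdh and Fmo5. Between HYA-treated and control mice the ratio stayed above 1 for Aox3 (1.46, 1.34 and 1.36) and Fmo4 (1.13, 1.03 and 1.05). It stayed below 1 for Aox1 (0.984, 0.902 and 0.919), Fmo2 (0.991, 0.905 and 0.922) and Fmo5 (0.962, 0.883 and 0.899), and crossed 1 for Xdh and Fmo1. Under each scaling these groups overlapped in every gene but Aox3.

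**Figure D4:**
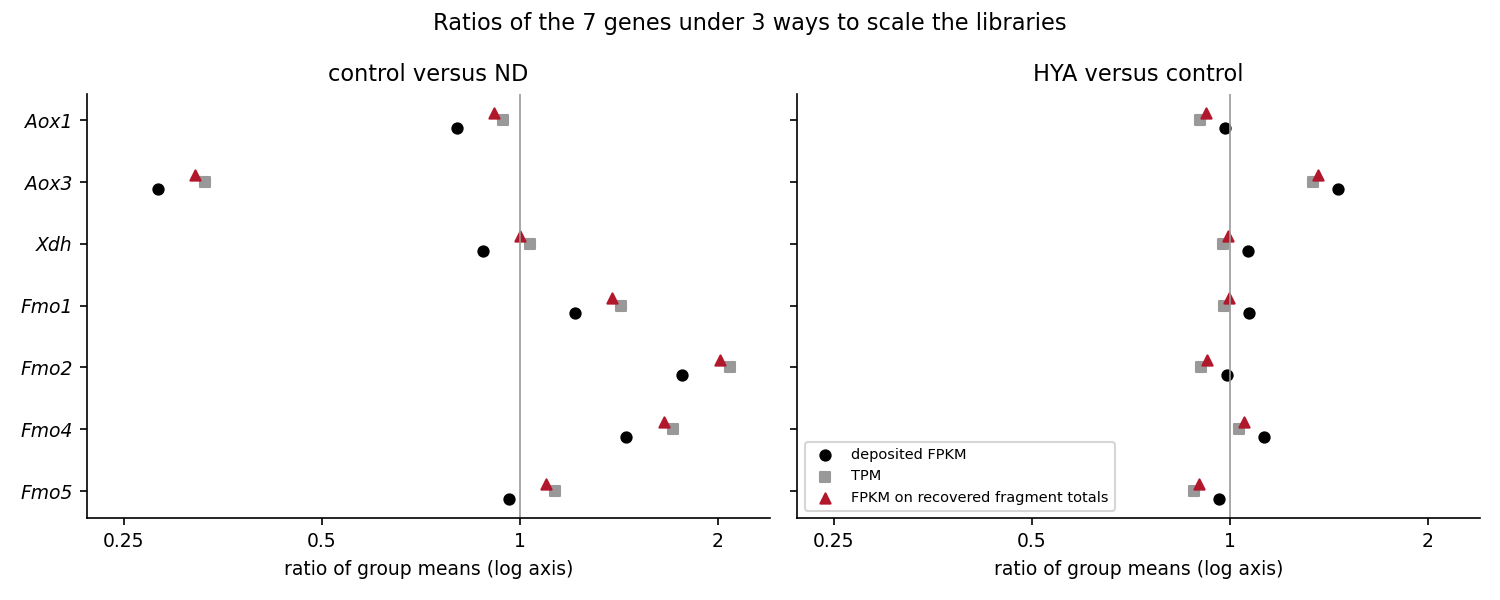
Ratio of group means (x axes, log scale) for the 7 genes with the deposited FPKM, TPM, and FPKM on recovered fragment totals, for control versus ND and HYA versus control. The 3 ratios of Aox3 were 0.282, 0.332 and 0.321 on the left and 1.46, 1.34 and 1.36 on the right.

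Partners of these enzymes were tested in the fit over all genes. Their lists were also chosen with earlier results of these data known, so that the counts are not independent evidence of a direction. The lists hold 82 genes, of which 66 had a mean of at least 1 FPKM. Between control and ND-fed mice, 12 rose and 27 fell (limma, two-sided, Benjamini-Hochberg adjusted p under 0.05 over all 11083 genes), where 16.2% of all tested genes were called higher and 19.1% lower. With TPM the split was 21 higher and 20 lower, and with recovered totals 17 and 21.

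Of 8 genes for the molybdenum cofactor, which aldehyde oxidases and Xdh need, and for other molybdoenzymes, 5 fell in control compared with ND-fed mice and 0 rose (median log2 fold change −0.45, against −0.04 over all tested genes), and with TPM 4 fell and 1 rose. Mocs1, which makes the first intermediate of the cofactor, fell from 48.9 ± 1.96 to 26.5 ± 2.55 FPKM (−0.87, standard error 0.09, adjusted p = 5.75e-05, limma). Gphn, which inserts the molybdenum, fell from 20.9 ± 1.46 to 14.2 ± 0.56 FPKM (adjusted p = 0.000133, limma). Suox (sulfite oxidase) fell from 73.9 to 48.8 FPKM and Mocs2, which makes molybdopterin, from 11.01 to 7.96 FPKM (adjusted p = 0.000533 and 0.000818, limma). Mocos, the sulfurase that activates aldehyde oxidase and xanthine dehydrogenase, was the fifth (27.9 to 19.9 FPKM, adjusted p = 0.0181, limma), a call lost with TPM, with recovered totals, and without ND-fed mouse 1 or 2 or control mouse 1 or 2 (adjusted p up to 0.193, limma). It is named because the enzymes depend on it, after its values were seen. In HYA-treated mice Mocs1 was at 35.5 and Gphn at 17.7 FPKM, both higher than in control mice (adjusted p = 0.0438 and 0.0390, limma), and the other 6 genes of the list did not pass. Across the alternatives, the adjusted p of these 2 differences ran from 0.0195 to 0.172 and from 0.0310 to 0.161 (limma), and each call was lost in 9 of 15, TPM and recovered totals among them.

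Of 9 tested genes of purine breakdown, the path in which Xdh stands, 3 fell in control mice and 0 rose, and with TPM 3 fell and 2 rose. Among all tested genes 19.1% were called lower and 16.2% higher with the deposited scaling. Urad, which decarboxylates an intermediate on the way from urate to allantoin, fell from 41.2 ± 2.77 to 16.04 ± 2.001 FPKM (−1.31, standard error 0.10, adjusted p = 8e-06, limma). Pnp (purine nucleoside phosphorylase) fell from 10.9 to 5.57 FPKM and Urah, the step before Urad, from 122.9 to 91.8 FPKM (adjusted p = 0.00127 and 0.00306, limma). Urad was higher in HYA-treated mice (24.4 FPKM) than in control mice (0.58 on the log2 scale, adjusted p = 0.0257) and LA-treated mice (15.6 FPKM, 0.61, adjusted p = 0.0365, limma), calls lost in 6 and 7 of 15 alternatives. None of the 3 tested salvage genes (Hprt, Aprt and Adk) passed in any of these comparisons with the deposited scaling, and with TPM 2 of the 3 were called higher in the control group than on ND (1 with recovered totals). With HYA, 1 of the 3 was called lower than in the control group under each of these scalings.

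Of 15 aldehyde and alcohol dehydrogenases, which share aldehyde substrates with Aox1 and Aox3, 8 fell and 2 rose in control mice, and with TPM 5 fell and 5 rose. Adh4, an alcohol dehydrogenase, fell from 147 ± 10.01 to 59.5 ± 8.52 FPKM (−1.30, adjusted p = 8.69e-06, limma), and Aldh1l1, of folate metabolism, from 376 to 186 FPKM (−1.02, adjusted p = 0.000103, limma). Aldh3a2, the fatty aldehyde dehydrogenase, rose from 108 ± 1.98 to 220 ± 8.15 FPKM (1.02, adjusted p = 6.79e-06, limma) and Aldh1b1, a mitochondrial enzyme, from 30.9 to 58.8 FPKM (0.90, adjusted p = 0.000101, limma). In HYA-treated compared with control mice Aldh1b1 was lower (35.3 FPKM, −0.72, adjusted p = 0.0166) and Adh4 higher (83.7 FPKM, 0.49, adjusted p = 0.0357, limma). The call of Adh4 was lost in 8 of 15 alternatives, TPM among them, and that of Aldh1b1 in 2 of 15 (adjusted p up to 0.161 and 0.112, limma).

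Flavin monooxygenases draw on NADPH, and of 8 genes for its supply and for electron transfer 4 rose and 2 fell in control mice, and with TPM 4 rose and 0 fell. Pgd, of the pentose phosphate path, rose from 7.81 to 17.2 FPKM (1.04, adjusted p = 9.58e-06, limma), Me1 (malic enzyme) from 81.5 to 174 FPKM (1.09, adjusted p = 1.48e-05, limma) and Cyb5r3 (cytochrome b5 reductase) from 124 to 157 FPKM (adjusted p = 0.00158, limma). Cyb5a (cytochrome b5) fell from 353 to 291 FPKM (−0.28, adjusted p = 0.0177, limma), a call lost with TPM, with recovered totals, and without ND-fed mouse 2 or 3 or control mouse 1 or 3. In HYA-treated mice Pgd was at 13.0 FPKM, lower than in control mice (−0.37, adjusted p = 0.0448, limma), a call lost in 7 of 15 alternatives.

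Of 6 tested genes of nicotinamide and vitamin B6 handling, 1 rose and 2 fell in control mice, and with TPM 1 rose and 1 fell. Of all tested genes 16.2% were called higher and 19.1% lower, so no direction is read from this list. Nadk, which makes NADP, rose from 69.5 to 95.7 FPKM (0.46, adjusted p = 7.05e-05, limma). Nnmt, which makes the aldehyde oxidase substrate N-methylnicotinamide, fell from 48.6 ± 8.65 to 25.9 ± 11.1 FPKM (−0.94, adjusted p = 0.0133, limma), and the call was lost without ND-fed mouse 2 or control mouse 1 (adjusted p at most 0.0508). Of 8 targets of NRF2, a factor that also acts on genes for drug oxidation, 3 rose and 1 fell. With TPM 4 rose and 1 fell. Srxn1 (sulfiredoxin) rose from 16.9 to 44.4 FPKM (1.34, adjusted p = 1.49e-05), Nqo1, a quinone reductase, from 4.27 to 9.77 FPKM (1.04, adjusted p = 5.23e-05) and Hmox1 (heme oxygenase) from 15.00 to 21.98 FPKM (adjusted p = 0.00909), while Gclm, of glutathione synthesis, fell from 42.7 to 31.3 FPKM (−0.44, adjusted p = 9.84e-05, limma). Srxn1 was lower in HYA-treated (30.2 FPKM) than in control mice (−0.54, adjusted p = 0.0390, limma), a call lost in 7 of 15 alternatives.

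Aldehyde oxidase levels in mouse liver differ by sex, and genes of sex-biased expression were listed for that reason. Hsd3b5, Slco1a1 and Cyp17a1 were already named in earlier results of these data when the lists were made. Their p-values below are therefore not independent evidence. Of 7 male-biased genes, 6 fell in control compared with ND-fed mice under all 3 scalings and 0 rose (median −2.29). Aox3 was lower in this comparison as well, while Aox1 overlapped between these groups. All mice were male, and a link between the aldehyde oxidases and these genes was not tested. Cyp2d9 fell from 613 ± 48.9 to 155 ± 11.7 FPKM (−1.98, adjusted p = 6.32e-07, limma), Cyp4a12a from 119 to 23.7 FPKM (−2.29, adjusted p = 2.22e-05, limma) and Cyp7b1, an oxysterol hydroxylase, from 101 to 21.5 FPKM (−2.20, adjusted p = 2.7e-05, limma). Hsd3b5, a steroid dehydrogenase, was at 161 ± 21.6 FPKM in ND-fed and 0.484 ± 0.680 in control mice (−6.85, adjusted p = 3.9e-05, limma). Of 9 female-biased genes only 2 had a mean of at least 1 FPKM and were tested, so no direction is given for that list. Both rose, Cyp17a1 from 1.67 to 59.6 FPKM (4.49, adjusted p = 7.78e-09, limma) and Cyp2b9 from 8.13 to 84.2 FPKM (3.23, adjusted p = 1.33e-06, limma). In HYA-treated compared with control mice 4 male-biased genes rose, among them Cyp2d9 (to 265 FPKM, 0.77, adjusted p = 0.0141), Cyp4a12a (to 62.4 FPKM, 1.35, adjusted p = 0.0168) and Slco1a1, an organic anion transporter (10.46 to 47.9 FPKM, 2.30, adjusted p = 0.0271), and Cyp2b9 fell to 40.9 FPKM (−1.04, adjusted p = 0.0271, limma). These calls were lost in 2 (Cyp2d9), 3 (Cyp4a12a), 6 (Slco1a1) and 5 (Cyp2b9) of 15 alternatives. Cyp2b9 was also lower with HYA than with LA (100.2 FPKM, −1.30, adjusted p = 0.0317, limma), a call lost in 6 of 15.

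**Figure D5:**
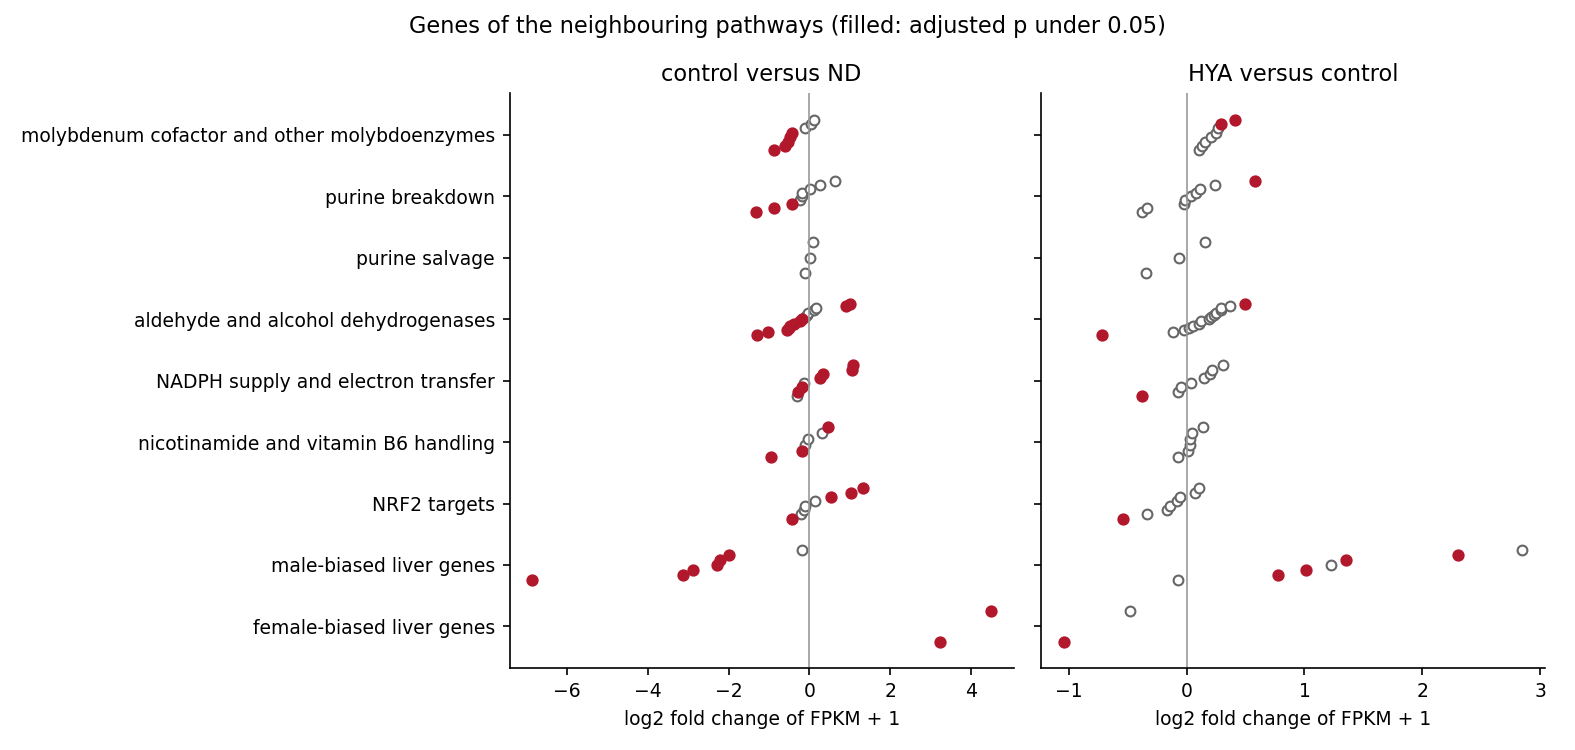
log2 fold change of FPKM + 1 (x axes) of the 66 tested partner genes by list, for control versus ND (left) and HYA versus control (right). Filled points passed an adjusted p under 0.05 (limma), 39 on the left and 12 on the right.

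In all, 8 of the 66 partner genes rose and 4 fell in HYA-treated compared with control mice, against 1.57% of all tested genes higher and 1.23% lower. With TPM 6 rose and 7 fell, and with recovered totals 7 and 6. With a fit of these 6 mice alone limma called 0 (29 of 66 at an unadjusted p under 0.05), and without HYA-treated mouse 2 it called 0 as well (27 of 66), while voom on recovered fragments called 14. Without control mouse 1 the count was 3, without control mouse 3 or HYA-treated mouse 1 it was 5, without HYA-treated mouse 3 it was 4, and without control mouse 2 it was 20. Between HYA-treated and LA-treated mice 1 rose (Urad) and 1 fell (Cyp2b9), against 0.235% and 0.253%, with 33 of the 66 at an unadjusted p under 0.05. With TPM 1 rose and 4 fell, and with limma 0 passed without HYA-treated mouse 2 (21 of 66 unadjusted) or without LA-treated mouse 1, 2 or 3 (20, 31 and 27 of 66), while voom on all livers called 7. Between LA-treated and control mice limma called 0 partner genes higher and 0 lower, and 0.0% of all tested genes, with 2 of the 66 at an unadjusted p under 0.05 and 0 by voom on recovered fragments. Of all tested genes 294 (2.65%) had an unadjusted p under 0.05 there.

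The tested genes whose levels ran most like those of each member over the 12 livers were found by Pearson's r of log2(FPKM + 1), which describes a likeness over livers that share 4 diets. For Aox3 they were Ces2a, a carboxylesterase (r = 0.993, mean 225 FPKM in ND-fed and 33.0 in control mice), and Cyp2c70, which makes muricholic acids (r = 0.992, 276 and 61.4 FPKM). For Fmo1 they were Apoa5 (r = 0.952, 388 and 499 FPKM) and Tdrp (0.927), for Fmo2 Pla2g6 (0.972) and Trak1 (0.970), and for Fmo4 Slc16a11 (0.943) and Lpcat3 (0.926). For Aox1 they were Acer3 (0.927) and Ncbp3 (0.915), for Xdh Kansl3 (0.938) and Sord (0.929), and for Fmo5 Ikbkb (0.921) and Krr1 (0.896). Within groups, after the mean of each diet was taken off, the r of Aox3 with Ces2a was 0.717 and that of Xdh with Sord 0.926, over the same 12 livers. These genes were picked for a high r in these livers, so the values within groups are in part set by that choice.

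Genes that overlap the members on the genome had little or no signal. Gm24548, a small nucleolar RNA gene on the strand opposite to Aox3, had 0 fragments, and CT025731.2, a pseudogene within Xdh on its strand, had 2 in the 12 livers.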

How the data were processed

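Livers of 12 male C57BL/6J mice, 3 per diet group, were profiled by paired-end RNA sequencing. The deposited values are FPKM per gene. The study's methods name TPM, but the columns have unequal sums, so they were used as FPKM. Submitters' processing notes name fastp, HISAT2 2.0.5, featureCounts 1.5.0-p3 and GRCm38. Strand use and the handling of shared reads are not given in the sources used here. FPKM values were whole multiples of a step per gene (100% within 0.05 of a whole number), which gave fragments per liver.

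Differences were fitted on log2(FPKM + 1) with limma 3.58.1 (R 4.3.3) over all 12 livers and the 11083 genes that averaged 1 FPKM or more, two-sided, with Benjamini-Hochberg adjustment and a threshold of 0.05. Standard errors of the 7 genes come from that fit, and their p-values are not given. P-values of partner genes set the difference between 2 groups against the spread between mice within groups. That spread was pooled over the 4 groups and moderated across genes. The script was tested on simulated data.

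The 7 genes and the lists were chosen with earlier results of these data known. In each list, the called genes with the lowest adjusted p were named, up to 4 for control versus ND and up to 3 in each other comparison, and for each of the 7 genes the 2 genes with the highest r. The deposited table gives 2 symbols as dates, and these genes were found by identifier. Alternatives were TPM, size factors, another pseudocount, other filters, a fit of 2 groups, a replicate block, voom, a fold limit and leaving out each mouse. FPKM on recovered fragment totals was added after seeing the data. Some genes that the rule names are not reported here.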

Additional observations from a re-analysis of the deposited data

How the results depend on the processing

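The order of the diet groups in Aox3 was the same under TPM and recovered totals, while the log2 difference of Xdh between control and ND-fed mice went from −0.18 to 0.0478 with TPM and 0.0011 with recovered totals. The cause was not tested. Leaving out a mouse can only keep or raise the number of the 7 genes without overlap, so its lower ends say nothing of stability. It ran from 5 to 6 (control versus ND), 1 to 3 (HYA versus control; 2 without HYA-treated mouse 3 or control mouse 3, 3 without control mouse 2), 1 to 4 (LA versus control; 3 without LA-treated mouse 3, 4 without control mouse 3), 3 to 5 (HYA versus LA; 5 without LA-treated mouse 3), 5 to 7 (HYA versus ND) and 4 to 6 (LA versus ND). The 39 called partner genes of control versus ND ranged from 31 to 39 over left-out mice and were 16 with an absolute log2 fold change above 1. The 12 of HYA versus control became 3 without a filter, 0 with 2 groups only and 4 with the fold limit, and 0 to 20 over left-out mice (6 without ND-fed mouse 2, 7 without LA-treated mouse 2 or 3). The 2 of HYA versus LA became 5 with TPM, 0 without a filter (35 unadjusted), 4 with 2 groups only, 7 with voom and 1 with the fold limit, and 0 to 8 over left-out mice. LA versus control stayed at 0. Fmo2 and Fmo4, at 114 fragments in their shallowest livers, were the least precise of the 7 genes.

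With the replicate block, that is, the replicate number as a factor, the counts of called partner genes were 39, 20, 0 and 8 in the same order of comparisons (control versus ND, HYA versus control, LA versus control, HYA versus LA). The numbers are not known to mark shared litters or days. Livers of the same number did not deviate together as a set (18 pairs, r −0.396 to 0.294, median 0.008, 3 of them over 0.1), so the mice were not treated as paired. Pairs of unlike number ran from −0.375 to 0.393 (36 pairs, 7 of them over 0.1), so some livers did deviate together across diets. What those livers shared was not tested.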

Other observations

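After the mean of each diet group was taken off, Fmo1 and Fmo5 varied together between the 12 livers (r = 0.865, against 0.147 before), as did Xdh with Fmo5 (0.765, against 0.605) and Xdh with Fmo1 (0.729, against 0.064). Aox1 and Aox3 had r = −0.554 within groups and 0.640 over all livers. In ND-fed mice 1, 2 and 3 Aox1 fell (28.3, 22.9 and 19.4 FPKM) where Aox3 rose (180, 194 and 219). The control, HYA and LA groups did not show this opposite order, so no general opposition of these genes is read from it. Fmo2 and Fmo4 had r = 0.839 over all livers and 0.637 within groups. These are descriptions over livers that share library scaling, with 3 mice per group. Control mouse 2, HYA-treated mouse 3 and LA-treated mouse 3 were each the highest of their group in Fmo1, Fmo5 and Xdh. These livers also deviated together over all tested genes (r 0.294 to 0.306), so nothing particular to Fmo1, Fmo5 and Xdh is read from their r.

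Aox2, an aldehyde oxidase of the nasal lining that lies beside Aox4, had 18 of its 36 fragments in the 3 HYA-treated livers (5 to 7 in each). It had 0 to 3 in ND-fed, 0 to 4 in control and 0 to 5 in LA-treated livers. The 7 were in HYA-treated mouse 3, the library with the most fragments (25220880). The counts are too few to read a difference from.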
